A study of Mus musculus with 19 samples.

Results

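The small leucine-rich proteoglycan genes described here are Dcn, Bgn, Aspn, Lum, Fmod, Prelp, Omd, Ogn and Podn. They were chosen by symbol, as the transcript clusters of the array annotation that carry only that gene symbol, and a gene with several clusters is represented by its brightest, by the mean of the 19 arrays. All 9 genes were found, among 22180 genes measured.

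The family consists of secreted proteins built from leucine-rich repeats, most of which bind collagen fibrils and control how thick the fibrils grow and how they are spaced. Many members carry chondroitin, dermatan or keratan sulfate chains, and several bind growth factors of the TGF-beta group or receptors at the cell surface. In fat tissue they are made mainly by the fibroblast-like stromal cells and preadipocytes, and much less by mature fat cells.

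Affymetrix whole-transcript mouse arrays measured RNA in 3 experiments on MED1, a Mediator subunit that connects transcription factors with RNA polymerase II. The first was on 3T3-L1 preadipocytes, an embryonic mouse line of fibroblasts that turn into fat cells under a hormone cocktail. It had 2 arrays each of MED1-KO cells on day 2, WT parent cells on day 2, MED1-KO cells on day 0 and WT cells on day 0, with days by the sample titles. The knockout was made with CRISPR/Cas9, and each knockout array holds RNA pooled from individual clones, so differences that arose in the cloning and effects of the knockout cannot be told apart. The second used interscapular brown fat of embryos at E17.5, with 4 arrays of Myf5-Cre Med1 f/f embryos and 3 of Myf5-Cre Med1 f/w embryos, which carry the same Cre and 1 floxed allele. The third used interscapular brown fat of 10-week-old mice, with 2 arrays of Adipoq-Cre Med1 f/f mice and 2 of Med1 f/f mice without Cre. The Myf5 promoter drives Cre in progenitors that give rise to skeletal muscle and brown fat, and the Adipoq promoter drives it in mature fat cells, so Med1 should stay intact in most other cells of the tissue. The labels leave unsaid whether arrays of a group hold independent cultures or animals, so the p-values capture only array-to-array spread, which may be technical.

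Values are log2 RMA signals. The experiments appear to have been normalized apart, so levels are compared only within an experiment, and levels of different genes are not compared, because each probe set has its own response. A gene is called changed where its limma p-value, adjusted by Benjamini-Hochberg over all 22180 genes, was below 0.05. Values after ± are standard errors of a log2 fold change unless SD is written. The array does not test a signal against background, and a signal is written as dim where it lay under the lower quartile of its own array, a value between 3.49 and 3.56 in cells, between 2.56 and 2.59 in embryos and between 2.22 and 2.24 in adults.

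Titles and source labels give different days for 4 of the 8 arrays of cells. The arrays titled day 2 replicate 1 have the source label for unstimulated cells, and those titled day 0 replicate 2 have the label for stimulated cells. The median SD within a group over all genes was 0.15 with days by title and 0.18 with days by source label. In WT cells, limma called 2012 genes between the days by title and 0 by source label. The mature fat cell marker Pparg averaged 7.87 ± 0.10 (SD, n = 2) in WT arrays titled day 2. In WT arrays titled day 0 it averaged 5.85 ± 0.12 (SD, n = 2). By the source label, arrays of both levels would share a group. Results by day follow the titles, and for the members some calls and values are also given by the source label. The comparison of genotypes over both days pairs each knockout array with the WT array of the same titled day and replicate number, which holds under either label.

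Med1 itself was checked first. In cells it was 7.07, 7.16, 7.08 and 7.0 in MED1-KO arrays, against 8.23, 8.48, 8.55 and 8.28 in WT arrays (log2 fold change -1.31 ± 0.08, limma adjusted p = 0.00108). In embryonic brown fat it was 7.0, 7.10, 7.10 and 6.88 in f/f arrays, against 6.94, 7.33 and 7.82 in f/w arrays (-0.35 ± 0.19, limma adjusted p = 0.369). The array labelled f/w replicate 1 therefore lay among the f/f arrays, and embryonic results are also given without it. In adult brown fat Med1 was 5.28 and 5.13 in Adipoq-Cre arrays, against 5.99 and 6.90 in controls (-1.24 ± 0.31, limma adjusted p = 0.19). These probes can also read RNA from outside a deleted exon and from cells where the Cre does not act. Of the cell type markers listed for the samples, all 8 brown adipocyte markers lay above the lower quartile in every brown fat array, and of the 9 fibroblast markers measured only Dpp4 was dim in every cell array.

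Most of the family lies in 3 groups of neighbouring genes in the mouse genome, by the RefSeq annotation of GRCm38.p6. Dcn, Lum, Kera and Epyc follow each other on chromosome 10. Ecm2, Aspn, Omd and Ogn follow each other on chromosome 13, and Optc, Prelp and Fmod on chromosome 1. Bgn is on the X chromosome and Podn on chromosome 4.

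Promoter sequences are shown for the members on chromosomes 13 and 1, because Ogn, Fmod and Prelp fell between day 0 and day 2 in both genotypes, Omd fell in WT cells, and Aspn, which lies between Ecm2 and Omd, had a positive fold change in WT cells. The RefSeq table of GRCm38.p6 held promoters of 7 of the 9 members. Each sequence gives the 250 bases before the start of the gene, 5′ to 3′ on the gene's own strand: Ogn at chr13:49607765-49608014 (plus strand), Omd at chr13:49582212-49582461 (plus), Aspn at chr13:49544193-49544442 (plus), Fmod at chr1:134037004-134037253 (plus) and Prelp at chr1:133921402-133921651 (minus). Capitals mark every match, on either strand, to the motifs searched.
Ogn: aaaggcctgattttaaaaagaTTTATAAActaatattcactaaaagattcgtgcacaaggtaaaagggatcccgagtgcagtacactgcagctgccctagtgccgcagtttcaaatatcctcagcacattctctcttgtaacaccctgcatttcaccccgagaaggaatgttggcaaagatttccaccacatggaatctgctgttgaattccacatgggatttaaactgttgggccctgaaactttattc
Omd: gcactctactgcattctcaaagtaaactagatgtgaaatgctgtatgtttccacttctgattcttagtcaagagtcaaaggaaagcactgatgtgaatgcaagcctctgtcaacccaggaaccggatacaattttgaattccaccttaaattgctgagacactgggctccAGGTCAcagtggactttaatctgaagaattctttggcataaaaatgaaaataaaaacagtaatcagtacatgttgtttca
Aspn: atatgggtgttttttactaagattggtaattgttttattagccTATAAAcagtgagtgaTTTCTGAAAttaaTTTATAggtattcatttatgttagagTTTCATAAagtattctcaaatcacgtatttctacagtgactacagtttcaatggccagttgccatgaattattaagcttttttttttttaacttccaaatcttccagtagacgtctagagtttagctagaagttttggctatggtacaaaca
Fmod: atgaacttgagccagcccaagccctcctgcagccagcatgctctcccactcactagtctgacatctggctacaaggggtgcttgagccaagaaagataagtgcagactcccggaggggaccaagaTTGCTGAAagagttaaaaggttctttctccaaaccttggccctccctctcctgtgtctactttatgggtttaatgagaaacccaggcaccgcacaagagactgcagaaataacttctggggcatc
Prelp: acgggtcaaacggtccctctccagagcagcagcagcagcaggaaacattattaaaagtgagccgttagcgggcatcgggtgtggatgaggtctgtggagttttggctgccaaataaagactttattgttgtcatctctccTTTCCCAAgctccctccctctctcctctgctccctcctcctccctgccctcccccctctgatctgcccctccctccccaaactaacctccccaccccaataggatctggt

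The motifs searched were a TATA box (TATAAA, in 12.4% of 32851 promoters of the same length), a glucocorticoid receptor motif (AGAACA, 16.1%), a nuclear receptor motif (AGGTCA, 14%), a C/EBP motif (TTNNGNAA, 36.8%), an AP-1 motif (TGANTCA, 6.75%) and an Sp1 GC box (GGGCGG, 32.7%). Ogn held TATA boxes on both strands, overlapping each other and beginning 229 and 227 bases before the start. Omd held 1 nuclear receptor motif, which begins 80 bases before the start. Aspn held 2 TATA boxes and 3 C/EBP matches, of which 2 overlap each other. Fmod and Prelp each held 1 C/EBP match, beginning 125 and 110 bases before the start. No motif was held by all of Ogn, Omd, Fmod and Prelp, 4 of the 5 members that fell in WT cells. The fifth, Dcn, was not searched. The base composition differed widely, with 42% G or C in the Ogn window, 38.4% in Omd, 30% in Aspn, 51.2% in Fmod and 55.6% in Prelp. A match is a string of letters in this window and no evidence of binding, and the lack of one concerns only these letters.

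Decorin, the product of Dcn, binds collagen I fibrils, TGF-beta and the EGF receptor. On day 2, Dcn was 8.45 and 8.88 in MED1-KO cells, against 10.60 and 10.65 in WT cells. Both knockout arrays lay far below both WT arrays, a 3.89-fold lower signal (log2 fold change -1.96 ± 0.16, limma adjusted p = 0.00159). Lumican, from the neighbouring gene Lum, is a keratan sulfate proteoglycan that keeps collagen fibrils thin in the cornea and skin. Lum was 3.48 and 3.31 in MED1-KO cells on day 2, which is dim, against 4.49 and 4.86 in WT cells. Against the lower quartile as a floor the signal was at least 2.21-fold lower in the knockout (-1.28 ± 0.17, limma adjusted p = 0.0203). These 2 of the 9 members were called lower in MED1-KO cells on day 2, a call made for 0.234% of all genes, and none was called higher. In these bulk samples, fewer cells of a type and less RNA per cell cannot be told apart. The call of Lum rests on several arrays: its adjusted p was 0.133 without knockout replicate 1 of day 2, 0.161 without knockout replicate 2 and 0.117 without WT replicate 2, and Dcn stayed called with each array left out in turn. By the source label, none of the 9 was called on day 2, with Dcn at -1.19 ± 0.98 and Lum at -1.02 ± 0.40.

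Keratocan, from Kera, the next gene after Lum, is another keratan sulfate proteoglycan, known best from the cornea. It averaged 4.91 ± 0.18 (SD, n = 2) in MED1-KO cells and 6.66 ± 0.22 (SD, n = 2) in WT cells on day 2, and was called lower (-1.75 ± 0.22, limma adjusted p = 0.0159). Epyc, the fourth gene of this group, was near the lower quartile and had a value of 0.03 ± 0.18. So 3 of the 4 neighbours on chromosome 10 were called lower in the knockout on day 2, a call made for 0.234% of all genes. None of the other members or listed relatives was called. The count includes Lum, whose call rests on several arrays, as given above. With adjustment over all clusters the call of Lum was also lost (limma adjusted p = 0.228).

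None of the other 7 members was called between the genotypes on day 2. Podn, the gene of podocan, which binds collagen and restrains smooth muscle cell growth, was 4.74 and 4.54 in MED1-KO cells, against 5.11 and 5.04 in WT cells (-0.43 ± 0.13, limma adjusted p = 0.406). Fmod was 4.83 and 4.96 in MED1-KO cells, against 5.32 and 5.06 in WT cells (-0.29 ± 0.19). Ogn had -0.20 ± 0.16, Prelp -0.19 ± 0.15 and Aspn -0.14 ± 0.13. The 95% intervals of Fmod, Ogn, Prelp and Aspn together spanned -0.73 to 0.17, and that of Podn was -0.73 to -0.14. Bgn, the gene of biglycan, a chondroitin sulfate proteoglycan that can act on toll-like receptors, was 12.75 in both MED1-KO arrays, against 12.78 and 12.73 in WT cells. These values lie close to the highest of any cell array, 13.24. Omd was dim in both groups on day 2, and no fold is given.

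On day 0 limma called none of the 9 members, while 0.185% of all genes were called. Dcn was 11.02 and 10.96 in MED1-KO cells, against 11.73 and 11.57 in WT cells. Both knockout arrays again lay below both WT arrays, by a smaller amount (-0.66 ± 0.16, limma adjusted p = 0.363). Omd, the gene of osteomodulin, a keratan sulfate proteoglycan of bone, was 3.77 and 3.54 in MED1-KO cells, against 4.94 and 4.28 in WT cells (-0.95 ± 0.25, limma adjusted p = 0.481). Lum was 3.52 and 3.17 in MED1-KO cells, against 3.71 and 3.66 in WT cells (-0.34 ± 0.17), all close to the lower quartile. The other 6 had values between -0.22 and 0.17. By the source label, none was called either, and Dcn had -1.43 ± 0.98.

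**Figure D1:**
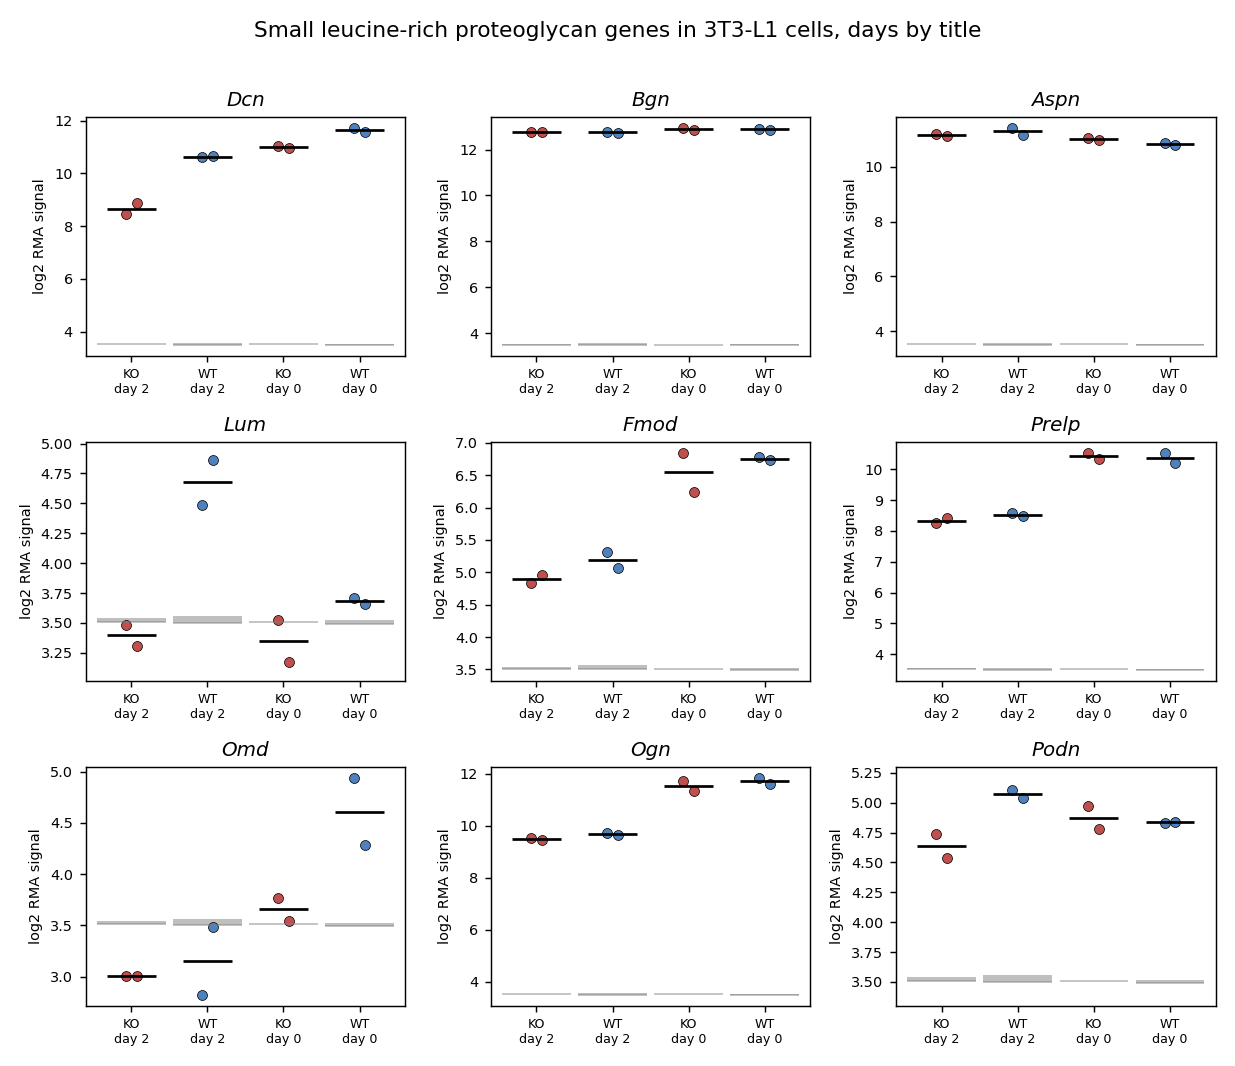
Log2 RMA signal of the 9 genes in the 8 cell arrays, with MED1-KO in red, WT in blue, 1 point per array, a line at the group mean and a grey line or band at the lower quartiles of the group's arrays; each panel has its own scale. Dcn on day 2 is 8.45 and 8.88 in MED1-KO cells, below 10.60 and 10.65 in WT cells, and Ogn, Prelp and Fmod are lower on day 2 in both genotypes.

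Over both days, the 4 knockout and WT pairs gave Dcn differences of -2.15 and -1.77 on day 2 and -0.71 and -0.61 on day 0, all negative (mean -1.31 ± 0.25, limma adjusted p = 0.102). Lum differences were -1.01 and -1.55 on day 2 and -0.19 and -0.49 on day 0 (-0.81 ± 0.20, limma adjusted p = 0.185). Limma called none of the 9 members over the pairs, while 0.289% of all genes were called. The genotype by day difference, which asks whether the knockout effect differs between the days, was -1.30 ± 0.22 for Dcn (limma adjusted p = 0.329, unadjusted p = 0.000219) and -0.94 ± 0.24 for Lum (limma adjusted p = 0.824). In that test limma called none of the 9 members and 0% of all genes. By the source label the value for Dcn was 0.24 ± 1.38 and that for Lum -0.42 ± 0.57.

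Between day 0 and day 2 after the hormone cocktail, several members fell in both genotypes. In WT cells, 5 of the 9 members were called lower on day 2 than on day 0, a call made for 5.64% of all genes. Ogn, the gene of osteoglycin, a regulator of collagen fibril growth, was 9.71 and 9.65 on day 2, against 11.85 and 11.61 on day 0, and fell 4.12-fold (-2.04 ± 0.16, limma adjusted p = 9.32e-05). Prelp, whose protein binds both collagen and heparan sulfate, was 8.58 and 8.47 on day 2, against 10.54 and 10.19 on day 0 (-1.84 ± 0.15, limma adjusted p = 0.000129). Fibromodulin, the product of Fmod, binds collagen and guides its crosslinking, mainly in tendon. Fmod was 5.32 and 5.06 on day 2, against 6.78 and 6.74 on day 0 (-1.57 ± 0.19, limma adjusted p = 0.00114). For each of these genes the arrays of the days were far apart.

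Dcn fell 2.04-fold in WT cells (-1.03 ± 0.16, limma adjusted p = 0.00366), with the values given above. Omd was 2.82 and 3.48 on day 2, which is dim, against 4.94 and 4.28 on day 0, and fell at least 2.12-fold (-1.46 ± 0.25, limma adjusted p = 0.00667). Lum went the other way: with 4.49 and 4.86 on day 2, against 3.71 and 3.66 on day 0, it rose 1.99-fold (0.99 ± 0.17, limma adjusted p = 0.00637), a call in that direction made for 3.44% of all genes. Aspn, the gene of asporin, which binds collagen and carries no glycosaminoglycan chain, was 11.43 and 11.16 on day 2, against 10.87 and 10.81 on day 0 (0.45 ± 0.13, limma adjusted p = 0.0731). With variances moderated by trend and robustly, Aspn was called higher (limma adjusted p = 0.0272). Bgn (-0.12 ± 0.12) and Podn (0.24 ± 0.13) were not called.

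In MED1-KO cells, 4 of the 9 were called lower on day 2 than on day 0, a call made for 3.57% of all genes, and none higher. Dcn, at 8.45 and 8.88 on day 2 and 11.02 and 10.96 on day 0, fell 5.01-fold (-2.32 ± 0.16, limma adjusted p = 0.000115). Ogn was 9.53 and 9.44 on day 2, against 11.73 and 11.35 on day 0 (-2.06 ± 0.16). Prelp was 8.26 and 8.41 on day 2, against 10.52 and 10.34 on day 0 (-2.10 ± 0.15), and Fmod was 4.83 and 4.96 on day 2, against 6.85 and 6.24 on day 0 (-1.65 ± 0.19). For Ogn and Fmod, the genotype by day differences were -0.01 ± 0.22 and -0.08 ± 0.27, and for Prelp -0.25 ± 0.21. Their 95% intervals were -0.51 to 0.49, -0.69 to 0.54 and -0.74 to 0.23. No gene at all was called in this test, Dcn at -1.30 ± 0.22 included. True differences within these intervals, or larger ones, could therefore have gone undetected. Lum had 0.05 ± 0.17 and was not called in MED1-KO cells. The day comparisons of WT and MED1-KO cells and the genotype comparisons share arrays, so they are not independent of each other.

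Within the cells, the order of Dcn levels was MED1-KO day 2, WT day 2, MED1-KO day 0 and WT day 0 from low to high, with no overlap between neighbours. The genotypes were called apart on day 2 and not on day 0, and WT day 2 against MED1-KO day 0 was not tested. For Ogn, Prelp and Fmod both day 2 groups lay below both day 0 groups, and the genotypes of a day were not called apart. For Bgn and Aspn all cell arrays lay within 12.73 to 12.95 and 10.81 to 11.43. By the source label, none of the 9 was called between the days in either genotype. The values by that label were -0.05 (Dcn), -0.15 (Ogn), -0.23 (Prelp), -0.15 (Fmod) and 0.16 (Lum) in WT cells, with standard errors from 0.40 to 1.11. In MED1-KO cells they were 0.19 (Dcn), -0.24 (Ogn), -0.02 (Prelp), -0.24 (Fmod) and -0.26 (Lum).

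The genes Fmod, Bgn and Prelp each have another, dimmer transcript cluster under the same symbol. The other Fmod cluster gave -0.39 ± 0.20 in MED1-KO cells and -0.23 ± 0.20 in WT cells between the days, and the other Prelp cluster gave -0.45 ± 0.27 in MED1-KO cells and -0.24 ± 0.27 in WT cells. Their direction was that of the clusters used, but they were far smaller and not called, and what the probes of the 2 clusters read was not tested. The other Bgn cluster gave 0.55 ± 0.19 in the embryo and 0.51 ± 0.20 in the adult.

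**Figure D2:**
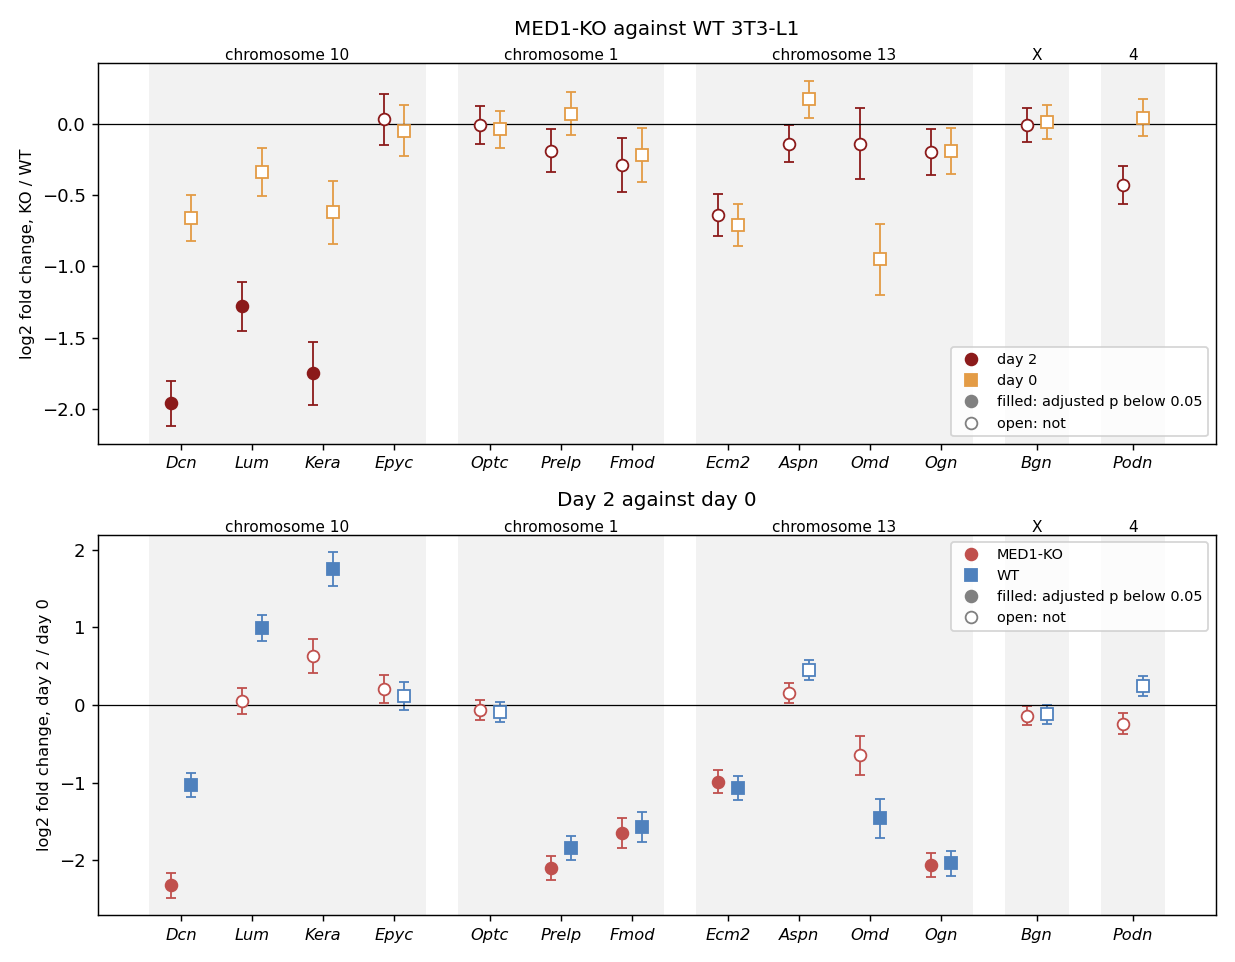
Log2 fold changes with standard errors in 3T3-L1 cells, for MED1-KO against WT on day 2 and day 0 (upper panel) and for day 2 against day 0 in MED1-KO and WT cells (lower panel). The 9 members and the relatives Kera, Epyc, Optc and Ecm2 are set beside their neighbours on each chromosome, and Chad, Nyx and Podnl1 are not shown. Filled symbols have an adjusted p below 0.05. On day 2 Dcn, Lum and Kera are lower in MED1-KO cells, and between the days Dcn, Prelp, Fmod, Ecm2 and Ogn are lower in both genotypes.

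Among the cell type markers, those of mature fat cells were lower in MED1-KO cells on day 2. Their summed linear signal was then 222 to 232 in MED1-KO cells and 493 to 552 in WT cells. Such sums, here and below, are weighted towards the brightest markers. Of the 7 measured, 3 were called lower in the knockout, Pparg, Fabp4 and Cidec, a call made for 0.234% of all genes. All 7 had negative fold changes (median -0.71). Between the days in WT cells these markers went against most members. All 7 were positive (median 0.84) and 5 were called higher, a call made for 3.44% of all genes. In MED1-KO cells 5 of the 7 were positive (median 0.1) and 2 were called higher (2.14% of all genes). The 9 fibroblast markers summed to 5360 to 5560 in MED1-KO cells and 4890 to 5350 in WT cells on day 2. On day 0 they summed to 7670 to 9620 in MED1-KO cells and 7570 to 9400 in WT cells. Between the days 3 of the 9 were positive in each genotype, with a median of -0.07 in MED1-KO cells and -0.02 in WT cells. Only Pdgfrb and Col1a1 were called between the days, both lower in both genotypes (3.57% of all genes in MED1-KO cells and 5.64% in WT cells). Of these 9, only Cd34 was called between the genotypes, lower in MED1-KO cells on both days (-1.36 ± 0.14 on day 2 and -1.43 ± 0.14 on day 0). Such a call was made for 0.234% of all genes on day 2 and 0.158% on day 0. In this comparison 4 of the 9 were positive on day 2 (median -0.04) and 5 on day 0 (median 0.03). The part of these cell types in the Dcn and Lum differences was not tested.

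In embryonic brown fat, none of the 9 was called by limma between Myf5-Cre Med1 f/f and f/w embryos, while 1.16% of all genes were. Bgn was 11.15, 11.18, 11.08 and 11.17 in f/f embryos, against 10.95, 10.66 and 10.62 in f/w embryos (0.41 ± 0.09, limma adjusted p = 0.071). Ogn was 10.66, 10.35, 10.43 and 10.74 in f/f embryos, against 10.25, 9.67 and 9.32 in f/w embryos (0.80 ± 0.22, limma adjusted p = 0.106). Dcn was 11.08, 10.88, 10.85 and 11.07 in f/f embryos, against 10.84, 10.32 and 10.01 in f/w embryos (0.58 ± 0.19, limma adjusted p = 0.15). In these 3 genes all f/f arrays lay above all f/w arrays, as in 8.56% of all genes.

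Lum was 9.01, 8.59, 8.40 and 8.98 in f/f embryos, against 8.59, 7.83 and 7.53 in f/w embryos (0.76 ± 0.27, limma adjusted p = 0.181). Aspn was 10.45, 10.11, 10.21 and 10.42 in f/f embryos, against 10.31, 9.41 and 9.41 in f/w embryos (0.59 ± 0.23, limma adjusted p = 0.213). In both genes the groups overlapped through the array labelled f/w replicate 1. Fmod had 0.21 ± 0.12, Omd was dim in both groups, Prelp had -0.28 ± 0.14 and Podn -0.08 ± 0.10. In all, 7 of 9 fold changes were positive (median 0.41), against 46.1% of all genes (median -0.01).

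The array labelled f/w replicate 1 was the highest of the 3 f/w arrays in Dcn, Bgn, Aspn, Lum, Fmod, Omd and Ogn, and the lowest in Med1. Without it the values were 0.81 ± 0.12 for Dcn, 1.07 ± 0.20 for Lum, 1.05 ± 0.15 for Ogn, 0.89 ± 0.11 for Aspn, 0.51 ± 0.05 for Bgn, 0.35 ± 0.09 for Fmod, -0.38 ± 0.14 for Prelp and -0.12 ± 0.12 for Podn. The lowest limma adjusted p among the 9 was then 0.0506, and no gene at all was called without that array. Med1 was then -0.56 ± 0.15 (limma adjusted p = 0.0998). Leaving out f/w replicate 3 instead moved most values towards 0, with 0.39 ± 0.16 for Dcn, 0.53 ± 0.27 for Lum, 0.59 ± 0.19 for Ogn, 0.44 ± 0.25 for Aspn, 0.34 ± 0.09 for Bgn, 0.14 ± 0.13 for Fmod, -0.13 ± 0.10 for Prelp and -0.12 ± 0.13 for Med1, while Podn had -0.17 ± 0.10.

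The 9 fibroblast markers summed to 4160 to 4710 in f/f embryos and 2500 to 3210 in f/w embryos, all 9 with positive fold changes (median 0.40). Of these, 1 was called higher, a call made for 0.658% of all genes. It was Col1a1, which is also among the collagens below. Skeletal muscle markers summed to 3640 to 4220 in f/f embryos and 847 to 2490 in f/w embryos (10 of 11 positive, median 1.2), and smooth muscle or pericyte markers to 1410 to 1740 in f/f embryos and 985 to 1270 in f/w embryos. Brown adipocyte markers summed to 2560 to 3700 in f/f embryos and 6450 to 9670 in f/w embryos. The smooth muscle markers Cnn1 and Acta2 were called higher and the brown adipocyte markers Ucp1 and Dio2 lower, where 1.16% of all genes were called. None of these marker calls stayed once any 1 array was left out. Tendon or cartilage markers summed to 186 to 237 in f/f embryos and 135 to 168 in f/w embryos. The part of these in the values of the 9 genes was not tested.

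In adult brown fat limma called none of the 9 with 2 arrays a group, where 0.0271% of all genes were called. Among the 9, the largest differences were in Prelp and Lum, in opposite directions. Prelp was 8.65 and 7.85 in Adipoq-Cre Med1 f/f mice, against 10.50 and 9.92 in Med1 f/f mice, a signal 3.88-fold lower (-1.96 ± 0.33, limma adjusted p = 0.112). The other Prelp cluster gave a far smaller value, -0.52 ± 0.24. Lum was 8.24 and 7.95 in Adipoq-Cre mice, against 6.81 and 6.56 in controls, 2.67-fold higher (1.41 ± 0.17, limma adjusted p = 0.0755). Neither passed the test, although the arrays of the groups did not overlap.

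Aspn was 7.80 and 8.19 in Adipoq-Cre mice, against 7.01 and 6.77 in controls (1.1 ± 0.19, limma adjusted p = 0.113). Bgn was 9.63 and 9.39 in Adipoq-Cre mice, against 9.0 and 8.37 in controls (0.82 ± 0.24, limma adjusted p = 0.242). Dcn was 11 and 11.01 in Adipoq-Cre mice, against 10.54 and 10.21 in controls (0.63 ± 0.16, limma adjusted p = 0.195). Ogn was 9.07 and 9.39 in Adipoq-Cre mice, against 8.84 and 8.47 in controls (0.57 ± 0.20). Omd was 2.44 and 3.06 in Adipoq-Cre mice, against 2.01 and 2.30 in controls, close to the lower quartile (0.59 ± 0.25). In 6 of the 9 genes both Adipoq-Cre arrays lay above both controls, as in 21.8% of all genes. Podn was 7.02 and 6.25 in Adipoq-Cre mice, against 6.44 and 6.08 in controls, and Fmod was 3.05 and 2.84 in Adipoq-Cre mice, against 2.74 and 3.41 in controls. The groups overlapped in both. The median fold change of the 9 was 0.59, against 0 over all genes.

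Fibroblast markers summed to 1630 to 1860 in Adipoq-Cre mice and 813 to 1060 in controls, all 9 with positive fold changes (median 0.69). Macrophage markers summed to 1280 to 1440 in Adipoq-Cre mice and 475 to 573 in controls, all 7 positive (median 1.32). Brown adipocyte markers summed to 5190 to 6730 in Adipoq-Cre mice and 10200 to 12800 in controls. Tendon or cartilage markers, of a tissue rich in several members, summed to 80.8 to 85.6 in Adipoq-Cre mice and 81.3 to 89.6 in controls. No marker list had a called gene in this comparison, and the part of other cells in the values of the 9 genes was not tested.

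**Figure D3:**
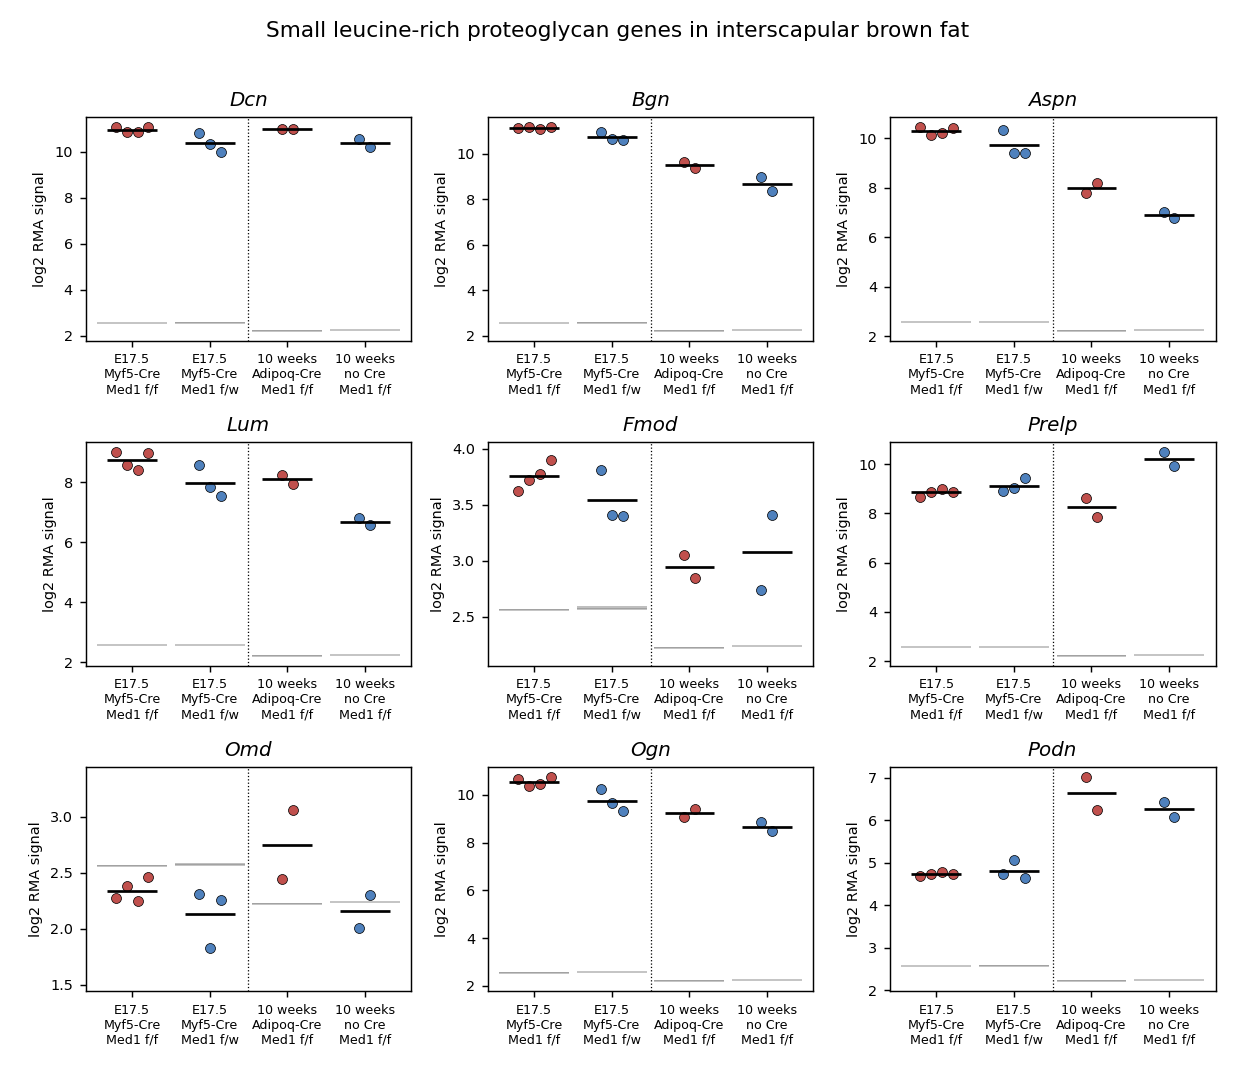
Log2 RMA signal of the 9 genes in interscapular brown fat, 1 point per array with a line at the group mean, at E17.5 left of the dotted line (Myf5-Cre Med1 f/f in red, Myf5-Cre Med1 f/w in blue) and at 10 weeks right of it (Adipoq-Cre Med1 f/f in red, Med1 f/f in blue). Grey lines or bands mark the lower quartiles of each group's arrays, each panel has its own scale, and levels are not comparable across the dotted line; Prelp is 8.65 and 7.85 in adult Adipoq-Cre mice, below 10.50 and 9.92 in controls.

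Whether the adult and embryonic effects differ was tested in 1 fit of the 11 brown fat arrays. Prelp was the only member called (adult minus embryonic effect -1.68 ± 0.34, limma adjusted p = 0.0341), where 1.99% of all genes were. Leaving out 1 array at a time, its call stayed only without f/w replicate 3, adult control replicate 2 or Adipoq-Cre replicate 1. Without each of the other 8 arrays it was lost, with an adjusted p between 0.0511 and 0.0912 and values between -1.75 and -1.28. The other Prelp cluster gave -0.45 ± 0.24, the same direction and not called. The 2 experiments also differ in Cre, age and control genotype, which cannot be told apart from each other here. Differences for the other 8 members lay between -0.34 and 0.65.

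**Figure D4:**
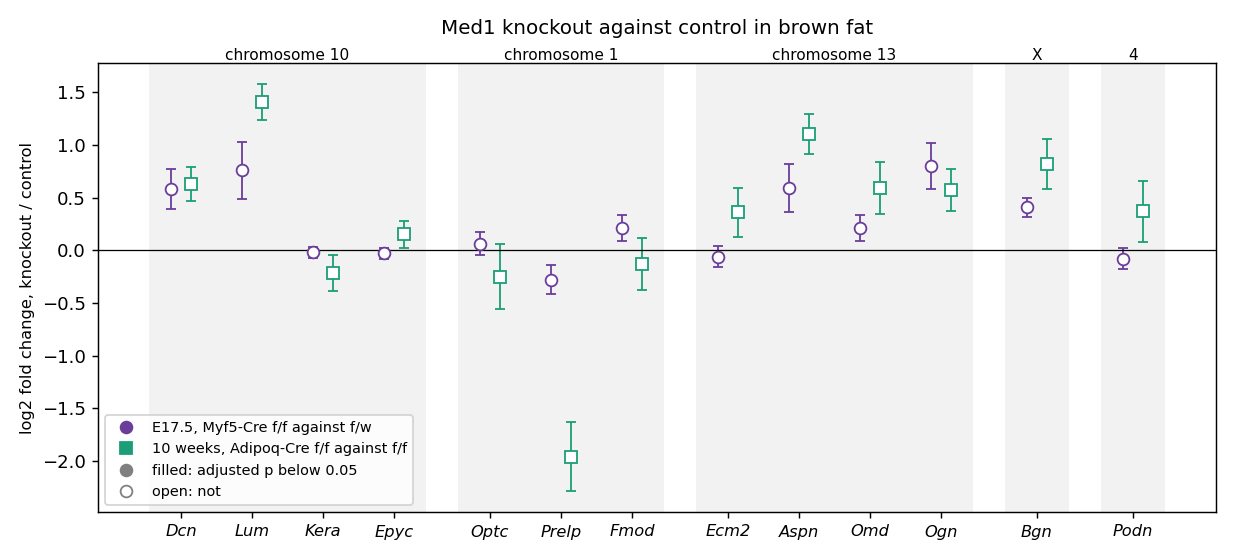
Log2 fold changes with standard errors of the 9 members and the relatives Kera, Epyc, Optc and Ecm2 in brown fat, for Myf5-Cre Med1 f/f against f/w embryos (circles) and Adipoq-Cre Med1 f/f against Med1 f/f adults (squares). Genes are set beside their neighbours on each chromosome. No gene shown had an adjusted p below 0.05 in either comparison. Lum is at 0.76 in embryos and 1.41 in adults, and Prelp at -0.28 in embryos and -1.96 in adults.

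The other 7 measured genes of the family, of 8 listed, were described in the same way. Besides Kera, 2 had calls. Ecm2, the neighbour of Aspn, was 4.45 ± 0.60 (SD, n = 4) in MED1-KO cells and 5.12 ± 0.62 (SD, n = 4) in WT cells over both days, and was called lower over the pairs (-0.67 ± 0.09, limma adjusted p = 0.046). Between the days Ecm2 fell in MED1-KO cells (-0.99 ± 0.15) and in WT cells (-1.07 ± 0.15), and Podnl1, the relative of Podn, fell in MED1-KO cells (-1 ± 0.14) and in WT cells (-1.12 ± 0.14). Kera rose in WT cells (1.75 ± 0.22, limma adjusted p = 0.00122) and had 0.63 ± 0.22 in MED1-KO cells (limma adjusted p = 0.162). Over the pairs 0.289% of all genes were called. Between the days 3.57% were called lower in MED1-KO cells and 5.64% in WT cells, and 3.44% were called higher in WT cells. None of the 7 was called in embryonic or adult brown fat. For these genes and the lists that follow, the calls by day use the titled days: by the source label, no gene at all was called on day 2 or between the days, and 1 gene was on day 0.

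Of the 13 collagens bound by the family, 3 were called higher in f/f embryos, a call made for 0.658% of all genes, and none lower. They were Col14a1 (0.76 ± 0.12), Col3a1 (0.63 ± 0.10) and Col1a1 (0.60 ± 0.09), with 12 of 13 values positive (median 0.50). No gene at all was called in the embryo once any 1 array was left out, so these calls rest on all 7 arrays. In adult Adipoq-Cre mice all 13 were positive (median 0.62) and none was called. Between the days, 6 were called lower in WT cells, with Col1a1 (-1.21 ± 0.16), Col3a1 (-1.12 ± 0.18) and Col11a1 (-1.05 ± 0.26) showing the largest values, and 2 in MED1-KO cells, Col1a1 (-1.02 ± 0.16) and Col1a2 (-0.71 ± 0.12). Of all genes, 3.57% were called lower between the days in MED1-KO cells and 5.64% in WT cells. No collagen was called between the genotypes in cells. The list medians between the days were -0.33 in MED1-KO cells and -0.30 in WT cells, against 0.01 over all genes in MED1-KO cells and 0.03 in WT cells.

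Of 13 proteases that process or cleave the family, 2 were called higher in f/f embryos (0.658% of all genes), Mmp2 (1.12 ± 0.16) and Bmp1, the procollagen C-proteinase that also trims biglycan (0.73 ± 0.11). On day 0, the collagenase gene Mmp13 (-2.84 ± 0.16) and the stromelysin gene Mmp3 (-1.79 ± 0.20) were called lower in MED1-KO cells, a call made for 0.158% of all genes. Between the days, 3 fell in MED1-KO cells (3.57% of all genes), Mmp9 (-1.79 ± 0.19), Mmp3 (-1.56 ± 0.20) and Adamts4 (-0.78 ± 0.16), and 5 fell in WT cells (5.64% of all genes), led by Mmp3 (-2.80 ± 0.20), Mmp13 (-2.36 ± 0.16) and Mmp9 (-1.65 ± 0.19). None was called in adult brown fat, where 12 of 13 were positive (median 0.53).

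Of 20 measured genes for the linker and the chondroitin or dermatan sulfate chains, 3 were called between the days in each genotype, where 5.70% of all genes were called in MED1-KO cells and 9.07% in WT cells. Chst11, a chondroitin 4-sulfotransferase, rose in MED1-KO cells (1.19 ± 0.22) and in WT cells (1.35 ± 0.22). Csgalnact1, which starts chondroitin chains, fell in MED1-KO cells (-1.05 ± 0.15) and in WT cells (-1.51 ± 0.15). Pxylp1, a phosphatase of the linker, fell in MED1-KO cells (-0.72 ± 0.16), and the dermatan sulfate epimerase gene Dse fell in WT cells (-0.88 ± 0.16). Of the 10 keratan sulfate genes, the sialyltransferase gene St3gal1 was the only one called, and it rose between the days in MED1-KO cells (0.56 ± 0.12) and in WT cells (0.76 ± 0.12). Neither list had a call between the genotypes in cells or in brown fat.

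Of 17 growth factors and receptors that the family binds, Egfr, a receptor of decorin, was called lower in MED1-KO cells on day 2 (-1.12 ± 0.14, limma adjusted p = 0.0158). It was also called lower over both days (-0.99 ± 0.09, limma adjusted p = 0.00412). On day 2, 0.234% of all genes were called lower, and over both days 0.289% were called. Between the days 4 fell and 1 rose in MED1-KO cells, where 3.57% of all genes fell and 2.14% rose, and 5 fell and 3 rose in WT cells, where 5.64% fell and 3.44% rose. Ccn4, a matricellular protein, had the largest change (-1.90 ± 0.17 in MED1-KO cells and -1.88 ± 0.17 in WT cells), followed by Tgfb3 (-1.01 ± 0.15 in MED1-KO cells and -1.28 ± 0.15 in WT cells) and the toll-like receptor gene Tlr2 (-0.95 ± 0.17 in MED1-KO cells and -1.14 ± 0.17 in WT cells). Met, the hepatocyte growth factor receptor, was the 1 gene of this list called between the adult and embryonic effects (-1.37 ± 0.29, limma adjusted p = 0.0416). In that test 1.99% of all genes were called.

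Genes whose pattern over the 19 arrays was most like a member were found from log2 values centred on the mean of each experiment, by the root mean square difference, among 17464 genes. Closest to Ogn were Aebp1 (0.17), Mfap5 (0.18) and Islr (0.20), where Ogn itself varied by 0.75 around its experiment means. Closest to Dcn (0.78) were Chrdl1 (0.30), Papss2 (0.32) and Emp2 (0.35), and closest to Prelp (0.81) were Pcgf5 (0.31), Rhoq (0.34) and Vegfb (0.36). Closest to Fmod (0.56) were Slc9a3r2 (0.19), Gaa (0.20) and Sema3f (0.21). For Lum (0.58) they were Plcl1 (0.30), Gfpt2 (0.31) and Tfdp1 (0.32), and for Omd (0.48) Mndal (0.24), Olfm1 (0.25) and Gata2 (0.25). Among the members, the smallest differences were between Bgn and Aspn (0.25), Bgn and Podn (0.26), and Fmod and Ogn (0.36). Genes that vary little also differ little by this measure, so a small difference need not mean a shared pattern. In embryos, for example, Bgn had 0.41 ± 0.09 and Podn -0.08 ± 0.10. The arrays share their groups, so the likeness is a description with no test.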

How the data were processed

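Per the labels' protocols, Trizol was used for total RNA and the GeneChip WT PLUS kit for labelling. Expression came as a single deposited matrix of log2 values covering 19 arrays. RMA and the Transcriptome Analysis Console are the tools listed, without versions, per the submitters' processing notes. The genome build is not given in the sources used here. Array medians lay between 4.69 and 4.79 for cells, between 3.49 and 3.57 for embryos and between 2.87 and 2.89 for adults. Of 41345 transcript clusters, the platform annotation gave 1 symbol for 23521, several for 1814 and none for 16010. For 1082 genes with more than 1 cluster, the one with the highest mean was used. The number of arrays limits the precision.

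Two-sided tests came from limma 3.58.1 under R 4.3.3, with moderated variances and no trend, adjusted by Benjamini-Hochberg. The comparison over both days used 4 array pairs as a block. The comparisons by day shared a fit of 4 groups over 8 arrays, and the brown fat experiments had a fit each. The fits were tested on simulated data. A fold against a dim group is at least the fold against its arrays' lower quartiles. The members, gene lists, marker lists and motifs were chosen with earlier results of these data known. All members are named, with up to 3 called genes of each list per comparison and the 3 genes most like each member with a call. Alternatives covered the clusters of a gene, scaling, a filter on dim genes, the spread model, the adjustment, the arrays in the fit, the replicate block, the label of the day and leaving out each array.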

Additional observations from a re-analysis of the deposited data

Results flagged for a closer look

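The knockout effect on Prelp differed between the adult and embryonic brown fat experiments by the test of the difference (adult minus embryonic effect -1.68 ± 0.34, limma adjusted p = 0.0341). Prelp was 8.25 ± 0.57 (SD, n = 2) in Adipoq-Cre Med1 f/f adults and 10.21 ± 0.41 (SD, n = 2) in Med1 f/f adults. It was 8.85 ± 0.15 (SD, n = 4) in Myf5-Cre Med1 f/f embryos and 9.13 ± 0.27 (SD, n = 3) in Myf5-Cre Med1 f/w embryos. The call was lost in most fits with a single array left out and with the replicate block. It was also lost with adjustment over all clusters (limma adjusted p = 0.0726). The other Prelp cluster gave -0.45 ± 0.24 and was not called.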

How the results depend on the processing

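Apart from leaving out single arrays, the alternatives kept direction and side of the threshold for 605 single-gene values, moved 18 out of a call and 13 into one, and turned the sign of 22. The label of the day mattered most. By the source label, 0 members were called on day 2, against 2 by title, 0 between the days in MED1-KO cells, against 4, and 0 between the days in WT cells, against 6. Signs turned by that label for Aspn (-0.02), Prelp (-0.17) and Podn (-0.11) on day 0, and for Aspn (0.06) and Prelp (0.04) on day 2. Between the days they turned for Dcn (0.19), Lum (-0.26) and Aspn (-0.08) in MED1-KO cells, and for Aspn (-0.17), Omd (0) and Podn (-0.02) in WT cells. In the genotype by day difference they turned for Dcn (0.24), Aspn (0.08), Omd (-0.12) and Prelp (0.21).

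Adjustment over all clusters left 1 member called on day 2 and 0 between the adult and embryonic effects. Over all genes it left 6 called on day 2, against 59, and 219 between the effects, against 441. A fit of all 19 arrays called 1 member over both days, 3 in the embryo and 4 in the adult, against 0 each. With the mean over clusters, Bgn had -0.04 over both days, -0.04 on day 0 and 0 for the genotype by day difference, and Fmod 0.05 in the adult. With centred arrays, Bgn had 0.02 on day 2 and 0.01 for the genotype by day difference, and Ogn 0.02 for the genotype by day difference. The cause of these moves was not tested.

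The replicate block was tried although same-numbered arrays deviated together unevenly (correlations 0.35 and 0.30 between genotypes in cells, 0.31, -0.02 and 0.11 in the embryo, 0.33 in the adult), and the labels do not say that a number marks a shared source. The block called Aspn between the days in WT cells (adjusted p = 0.043), where same-numbered arrays of the days correlated at 0.03. It called 2 members in the adult, Lum (adjusted p = 0.0443) and Prelp (adjusted p = 0.0372), and 0 between the adult and embryonic effects. Over all genes the block called 139 in the adult, against 6, and 187 between the effects, against 441. Without the block, no member was called over both days (Dcn adjusted p = 0.0598).

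Leaving out 1 array at a time, 1 to 2 members were called on day 2 and 0 to 1 between the adult and embryonic effects. Values crossed 0 over both days for Bgn (-0.01 to 0.02), Aspn (-0.04 to 0.10) and Prelp (-0.13 to 0.02). On day 0 they crossed for Fmod (-0.52 to 0.09), Bgn (-0.04 to 0.06), Ogn (-0.38 to 0.01), Prelp (-0.11 to 0.24) and Podn (-0.05 to 0.13). On day 2 the ranges were -0.03 to 0.02 for Bgn, -0.27 to 0 for Aspn and -0.47 to 0.19 for Omd, and between the days in MED1-KO cells -0.12 to 0.22 for Lum. For the genotype by day difference they were -0.38 to 0.23 for Fmod, -0.07 to 0.03 for Bgn and -0.21 to 0.18 for Ogn. In brown fat they were -0.17 to 0.05 for Podn in the embryo, -0.46 to 0.20 for Fmod and -0.01 to 0.76 for Podn in the adult, and -0.18 to 0.24 for Dcn between the experiments.

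Counts over all genes moved by over 1.5 times in 41 cases when an array was left out and in 31 under the other alternatives. Over both days 64 genes were called, against 9 to 245 under the alternatives. On day 0 it was 41, against 1 to 88, and on day 2 59, against 0 to 120. Between the days it was 1265 in MED1-KO cells, against 0 to 1660, and 2012 in WT cells, against 0 to 2555. The embryo had 257, against 0 to 1527, the adult 6, against 0 to 2049, and the difference between them 441, against 187 to 773. The genotype by day difference had 0, against 0 to 11. Signals near an array's lower quartile (Lum and Omd in cells, Omd in brown fat) limit what folds can show.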
